A study of Mus musculus with 3 samples.

Results

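H3K4me3 was measured at the transcript starts of 10 genes of the meiotic cell cycle machinery, out of 21755 protein-coding genes annotated on chromosomes 1 to 19 and X. The genes were Ccna1, Ccna2, Ccnb1, Ccnb2, Cdk1, Cdk2, Cdc25c, Plk1, Aurkc and Hspa2. They were picked by name, and each was given the narrow H3K4me3 peaks whose centre lay within 1 kb of any of its GENCODE vM21 transcript starts (mm10) and the broad peak lying over a start. Among them Ccna1, Aurkc and Hspa2 are known mainly from the germline and were set against the other 7, which serve dividing cells in general. The name of the group is not exact, since Cdc25c is a phosphatase and Hspa2 an HSP70 chaperone that Cdk1 needs in spermatocytes.

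The study used whole adult testis of males aged 23 weeks, (C57BL/6J x CAST/Eij)F1 mice with 1 humanised and 1 CAST allele of Prdm9, called (B6xCAST)F1-Prdm9 Hum/Cast. The humanised allele carries the DNA-binding zinc-finger array of human PRDM9 in place of that of C57BL/6J. There were 2 H3K4me3 ChIP libraries and 1 input library without antibody, all from this genotype and age, and no library from another condition. By the paper's methods the replicates came from 2 littermates, by the labels from the testes of 1 male, in which case their spread is technical. Values here therefore describe one condition, and no test between conditions was possible.

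Cyclins bind cyclin-dependent kinases and switch them on, and the kinases then drive entry into S phase and into division. In prophase of meiosis the cyclin B and CDK1 complex is held inactive by WEE1 kinases until CDC25 phosphatases remove the blocking phosphates, after which PLK1 and the Aurora kinases help to take the synaptonemal complex apart and attach chromosomes to the spindle. Spermatocytes add factors of their own, among them cyclin A1, Aurora kinase C and HSPA2. H3K4me3 marks the starts of genes that are active or poised, whether or not PRDM9, which places the same mark at recombination hotspots, binds nearby.

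Over 101978 narrow peaks the fragments above the peak centres summed to 17621116 and 19094837 in replicates 1 and 2 of the ChIP and to 1250138 for the input. Markers of spermatocytes and spermatids (Sycp3, Ddx4, Dazl, Acr, Prm1 and Tnp1) all had a peak at a start, 6 of 6, with a median enrichment of 58.6, from 9.43 at Tnp1 to 113 at Sycp3. Of the Sertoli cell markers 3 of 4 had one, from 11.0 at Sox9 to 39.4 at Rhox5 (median 17.5, none at Amh). The value at Rhox5, from 16 and 26 ChIP fragments, rests on an input of 0. Of the Leydig cell markers 4 of 4 had one, from 3.16 at Hsd3b6 to 15.0 at Insl3 (median 8.00). Among markers of other tissues the enrichment was 6.35 at Neurod1, 4.40 at Myod1 and 1.46 at Gfap, and there was no peak at Alb or Ins2. By enrichment the germ cell list was split. Sycp3, Ddx4, Dazl and Acr lay above every somatic marker, and the spermatid genes Tnp1 and Prm1 (14.6) within the somatic range. The broad peaks of Tnp1 and Prm1, however, were 22800 and 23900 bp wide. Those of the Sertoli markers with one ran from 1200 to 12600 bp, and those of the Leydig markers from 1100 to 10100 bp. In whole testis fewer cells of a type and less mark per cell cannot be told apart.

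All 10 genes had a narrow peak within 1 kb of a start, exactly 1 each, where 77.4% of all protein-coding genes had at least 1. All 10 also had a broad peak over a start, against 76.5% of protein-coding genes. The broad peaks of all 10 overlapped the regions that the authors list as PRDM9-independent, as did 94.3% of the broad peaks over protein-coding starts. These shares are high for any gene, so the presence of the peaks says little about these 10, and the description turns on their strength, width and position.

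The sequences around 6 of the starts are shown. Those of the 3 germline genes were chosen because their peaks ran from the weakest to nearly the strongest. Those of the cyclins Ccnb1 and Ccnb2 and their kinase Cdk1 were chosen because each holds a pair of CCAAT boxes at a similar spacing. All 6 are RefSeq reference sequences of build GRCm38.p6 (mm10), 250 bases before to 50 after the start, in the direction of the gene. Capitals mark matches, on either strand, to CCAAT (the CCAAT box), TTTGAA (the cell cycle homology region), CAACNG (a MYB site) and GGGCGG (the GC box), so that a CCAAT box on the other strand reads ATTGG. The TATA box, TATAAA, was searched too and was in none of the members' windows. Matches of different motifs did not overlap, and the GC boxes that run together in Ccna1 share bases.
Ccna1, chr3:55055006-55055305, minus strand: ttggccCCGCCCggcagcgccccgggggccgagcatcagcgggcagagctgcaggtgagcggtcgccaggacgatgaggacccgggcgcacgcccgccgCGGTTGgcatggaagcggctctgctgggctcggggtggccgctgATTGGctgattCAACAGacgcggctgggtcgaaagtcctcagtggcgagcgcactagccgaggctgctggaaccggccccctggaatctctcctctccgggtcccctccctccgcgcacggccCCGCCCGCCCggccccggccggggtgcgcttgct
Aurkc, chr7:6995135-6995434, plus strand: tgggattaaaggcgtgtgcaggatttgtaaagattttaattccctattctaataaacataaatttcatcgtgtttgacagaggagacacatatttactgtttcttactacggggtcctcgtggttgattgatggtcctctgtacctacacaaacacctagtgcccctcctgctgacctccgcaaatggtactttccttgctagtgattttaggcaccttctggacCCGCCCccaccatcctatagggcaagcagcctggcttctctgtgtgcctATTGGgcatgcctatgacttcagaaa
Hspa2, chr12:76404120-76404419, plus strand: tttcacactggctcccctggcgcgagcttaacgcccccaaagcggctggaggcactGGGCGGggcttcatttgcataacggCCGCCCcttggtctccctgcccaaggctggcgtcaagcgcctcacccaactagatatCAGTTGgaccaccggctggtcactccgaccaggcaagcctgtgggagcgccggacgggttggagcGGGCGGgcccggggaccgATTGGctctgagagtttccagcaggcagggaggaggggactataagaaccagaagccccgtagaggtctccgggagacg
Ccnb1, chr13:100786437-100786736, minus strand: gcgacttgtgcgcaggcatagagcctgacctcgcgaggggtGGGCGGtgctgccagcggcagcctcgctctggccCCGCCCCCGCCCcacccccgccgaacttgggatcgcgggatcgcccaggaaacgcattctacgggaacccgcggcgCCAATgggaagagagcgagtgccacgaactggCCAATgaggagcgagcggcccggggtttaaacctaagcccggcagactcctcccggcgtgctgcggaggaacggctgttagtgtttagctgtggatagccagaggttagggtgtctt
Ccnb2, chr9:70421505-70421804, minus strand: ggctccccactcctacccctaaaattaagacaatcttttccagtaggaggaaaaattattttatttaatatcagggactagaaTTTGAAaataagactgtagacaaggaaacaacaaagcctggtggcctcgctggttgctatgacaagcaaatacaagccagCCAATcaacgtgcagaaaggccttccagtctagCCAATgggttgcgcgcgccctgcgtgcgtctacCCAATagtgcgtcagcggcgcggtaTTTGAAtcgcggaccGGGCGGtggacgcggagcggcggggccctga
Cdk1, chr10:69352863-69353162, minus strand: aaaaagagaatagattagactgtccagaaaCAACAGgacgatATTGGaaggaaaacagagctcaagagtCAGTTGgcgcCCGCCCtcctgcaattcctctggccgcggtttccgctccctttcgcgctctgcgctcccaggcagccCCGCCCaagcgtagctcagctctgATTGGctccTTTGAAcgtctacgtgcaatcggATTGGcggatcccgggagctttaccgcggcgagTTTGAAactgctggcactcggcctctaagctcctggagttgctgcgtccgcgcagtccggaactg

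The strength of a peak is given as fragments over its centre in replicate 1, replicate 2 and the input, and as the authors' enrichment, a ratio over local background estimated from both replicates together. Over the 10 genes the fragment counts ranged from 225 to 1574 in replicate 1 (median 1127), from 227 to 1608 in replicate 2 (median 1229) and from 11 to 25 in the input (median 17.5). Protein-coding genes with a peak had medians of 695, 762 and 19. Enrichment ranged from 17.6 to 67.7 with a median of 55.6, beside a median of 37.6 and an interquartile range of 14.7 to 65.3 over the 16842 protein-coding genes with a peak. The genes were thus mostly in the upper middle of the range, with 8 of 10 above the median of protein-coding genes and 1 of 10, Cdk2, above the upper quartile.

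**Figure D1:**
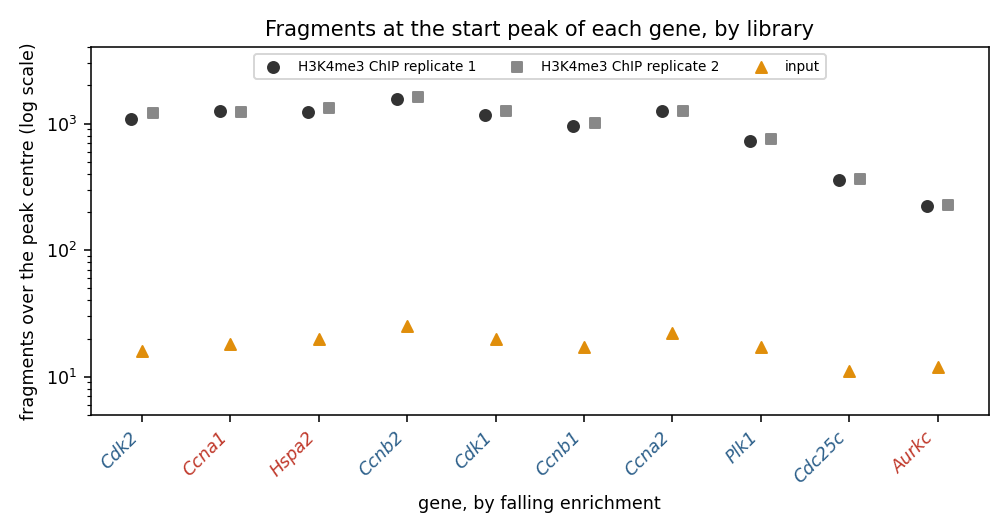
Fragments over the centre of the start peak (log scale) of each gene in the 2 H3K4me3 ChIP replicates and the input, with germline genes named in red and the others in blue. The ChIP points of each gene lie close together and far above its input point, and Cdc25c and Aurkc stand lowest.

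Ccna1 encodes cyclin A1, the A-type cyclin of male germ cells, which is needed to pass from prophase to the meiotic divisions. Its peak had 1251 and 1244 ChIP fragments (replicates 1 and 2, in this order throughout) against 18 in the input, an enrichment of 65.1 that exceeded those of 74.9% of protein-coding genes with a peak. Ccna2, the A-type cyclin of dividing cells, had 1250, 1263 and 22 fragments and an enrichment of 53.6. The ChIP counts of both genes were nearly the same, and the gap in enrichment went with the input counts of 18 and 22, whose counting error is wide. The ratio of ChIP to input did not separate the germline from the general A-type cyclin beyond counting error.

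The B-type cyclins are the partners of CDK1 in division. Ccnb1 had 961 and 1006 ChIP fragments and 17 input fragments, with an enrichment of 54.3. Ccnb2 had 1574, 1608 and 25 fragments, the most of the 10 genes in all 3 libraries, and an enrichment of 59.8. Ccnb3, the B-type cyclin of early meiotic prophase, had only 27, 32 and 0 fragments on the X chromosome and an enrichment listed as 55.4, a ratio that rests on an input of 0. The enrichments of the B-type cyclins thus looked alike while their counts did not.

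Cdk1, the kinase of the division itself, had 1163 and 1259 ChIP fragments and 20 in the input, with an enrichment of 56.9. Cdk2, which serves S phase and also holds telomeres at the nuclear envelope in spermatocytes, had 1091, 1214 and 16 fragments and an enrichment of 67.7, above 77.0% of protein-coding genes with a peak. The peak of Cdk2 was the strongest of the 10 by enrichment and only the 6th by ChIP count in either replicate. Among their activators and helpers, Cdc25c, the phosphatase that relieves the block on CDK1, had 355, 366 and 11 fragments and an enrichment of 30.7. It was below the median of protein-coding genes, at percentile 43.9. Plk1, the polo-like kinase that works at centrosomes and kinetochores, had 733, 761 and 17 fragments and an enrichment of 41.2, at percentile 53.3.

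Aurkc, the Aurora kinase of the chromosomal passenger complex in meiotic cells, had 225 and 227 ChIP fragments and 12 in the input, with an enrichment of 17.6 at percentile 29.1. It was the weakest of the 10 in both ChIP libraries and in enrichment. The p-value the authors give its peak, 3.41e-276, is the only one of the 10 that is not written as 0. Hspa2, whose chaperone is abundant in pachytene spermatocytes, had 1244, 1318 and 20 fragments and an enrichment of 60.2 at percentile 70.3. By enrichment Ccna1 and Hspa2 thus stood near the top of the 10 and Aurkc at the bottom.

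The counting error behind each value was taken from exact 95% intervals of the ratio of ChIP to input fragments, which are not scaled for library size and cover counting error only. In replicate 1 the ratio was 68.2 (interval 41.8 to 120) at Cdk2, 69.5 (43.8 to 118) at Ccna1, 43.1 (26.7 to 74.4) at Plk1, 32.3 (17.8 to 65.2) at Cdc25c and 18.8 (10.5 to 36.8) at Aurkc. Of the 45 pairs of genes, the intervals of 39 overlapped and those of 6 did not, in replicate 1, in replicate 2 and in both summed. Aurkc was in all 6 pairs, against Ccna1, Ccna2, Ccnb2, Cdk1, Cdk2 and Hspa2. These ratios all divide by the same input counts, so the equal numbers of pairs do not measure agreement between replicates. By falling enrichment the order was Cdk2, Ccna1, Hspa2, Ccnb2, Cdk1, Ccnb1, Ccna2, Plk1, Cdc25c and Aurkc, and the intervals of all 9 neighbouring pairs overlapped. By the overlap of these ratio intervals, a strict measure, only Aurkc stood apart from other genes, and the width of the intervals came mostly from the 11 to 25 fragments of the input. The ChIP counts alone, which take no account of local background, differed more widely, from 355 and 366 at Cdc25c and 733 and 761 at Plk1 to 1574 and 1608 at Ccnb2.

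**Figure D2:**
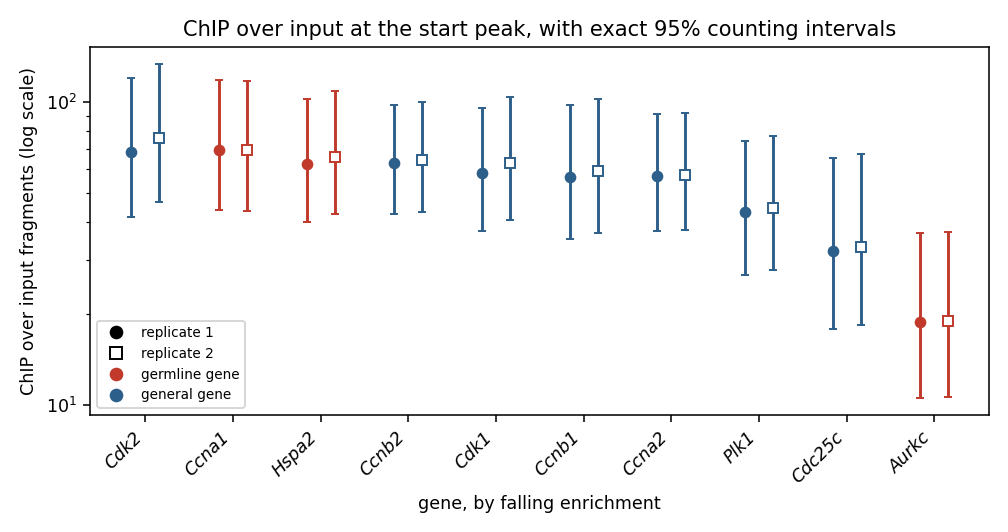
Ratio of ChIP to input fragments at the start peak (log scale) for replicate 1 (filled) and replicate 2 (open), with exact 95% counting intervals as bars, germline genes in red. The intervals of neighbouring genes overlap, and those of Aurkc, at 18.8 and 18.9, reach the fewest others.

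The replicates differed little at these peaks. The log2 ratio of replicate 2 to replicate 1 lay between -0.01 at Ccna1 and 0.15 at Cdk2, with a median of 0.05. Over the 12888 protein-coding genes whose peak had at least 400 ChIP fragments the median was 0.10 and the SD 0.12. The SD at the 10 genes was 0.05, no wider than at those starts. Most of the 10 had far more than 400 fragments, where counting error is smaller, so the spreads were not compared at like depth. The order by ChIP count was also nearly the same in both libraries, with Ccnb2 first and Plk1, Cdc25c and Aurkc at places 8, 9 and 10 in each.

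The germline genes had a median enrichment of 60.2 (17.6 to 65.1) and the general genes one of 54.3 (30.7 to 67.7), so the ranges overlapped for the most part. On the log2 scale the medians differed by 0.15 in favour of the germline genes. The sign depended on which genes were compared. Where only genes whose broad peak holds no start of another gene were kept, Aurkc alone stood against Ccna2, Ccnb1, Ccnb2 and Cdk1, and the difference was -1.66. Genes are not replicates of a condition, so no test was run, and the 3 germline genes held both the second highest and the lowest enrichment.

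Within the gene families the picture for Aurkc was plainer. Aurka, the spindle pole kinase, had 1533 and 1694 ChIP fragments and 16 in the input with an enrichment of 94.8. Aurkb, the passenger kinase of dividing cells, had 942, 1016 and 24 with an enrichment of 38.3. The interval of the summed ChIP over input ratio ran from 124 to 353 at Aurka, from 54.7 to 128 at Aurkb and from 21.4 to 73.4 at Aurkc. Aurkc was thus apart from Aurka beyond counting error, while its interval overlapped that of Aurkb.

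Among the CDC25 phosphatases, Cdc25a had 1770, 1983 and 21 fragments in replicate 1, replicate 2 and the input and an enrichment of 84.0. Cdc25b had 332, 422 and 15 and an enrichment of 23.5. The enrichment of 30.7 at Cdc25c lay between them, but its broad peak of 5800 bp was wider than their 3200 and 1600 bp. Plk1 was likewise the third of the 4 polo-like kinases by enrichment, after Plk4 (87.8), the centriole kinase, and Plk2 (61.7) and ahead of Plk3 (30.5), and had the widest broad peak. Hspa2 was the 9th of 13 HSP70 genes by enrichment, between 118 at Hspa4 and 7.40 at Hspa12b. It was the 4th by width, with Hspa1a and Hspa1l counted apart though they share the same peak. For these members the width and the height of the mark ranked differently within the family. The broad peaks of Cdc25c, Plk1 and Hspa2 each also held the start of another gene, as described below, so their widths may not belong to these genes alone.

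The broad peak over the start, built by the authors from adjacent enriched bins of 100 bp, was 2200 to 8900 bp wide over the 10 genes with a median of 4450 bp. Protein-coding genes with a broad peak had a median of 3400 bp and an interquartile range of 2200 to 5300 bp, and 9 of the 10 genes were above that median. Plk1 (8900 bp, wider than 91.7% of protein-coding genes with one) and Hspa2 (8100 bp, 89.6%) had the widest, followed by Cdc25c (5800 bp, 79.1%). Ccnb2 (4700 bp), Ccnb1 (4600 bp), Ccna1 (4300 bp), Ccna2 and Cdk2 (3900 bp each) and Cdk1 (3500 bp) lay close together. Aurkc, with 2200 bp, was narrower than all of them and at percentile 25.0. The cyclins and their kinases thus formed a compact set in both measures, and Plk1, Hspa2, Cdc25c and Aurkc lay around it. The germline genes had a median width of 4300 bp (2200 to 8100) and the general genes one of 4600 bp (3500 to 8900).

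**Figure D3:**
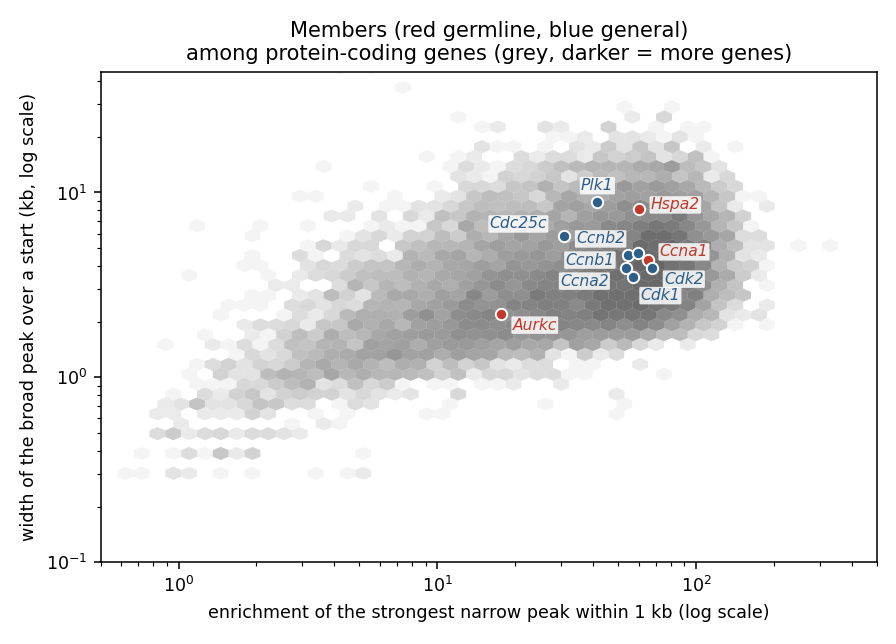
Enrichment of the strongest narrow peak within 1 kb of a start (log scale) against the width of the broad peak over a start (kb, log scale) for protein-coding genes (grey hexagons, darker for more genes on a log scale, with 55 of 16326 genes outside the axes) and the 10 members (points, germline red and general blue). The 4 cyclins, Cdk1 and Cdk2 sit together at 53.6 to 67.7 and 3.5 to 4.7 kb, Plk1 and Hspa2 lie above them, and Aurkc lies to the lower left at 17.6 and 2.2 kb.

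The centres of the peaks lay about as close to a start as in other genes. In 9 of the 10 genes the centre was within 300 bp of the nearest start, from 44 bp at Plk1 to 258 bp at Hspa2, against 77.1% of protein-coding genes with a peak. In 8 of the 10 it lay past that start, inside the gene, against 77.4%. The Cdk2 centre lay 103 bp before the nearest start but past the other starts of the gene. At position 55055402 of chromosome 3 the centre of the Ccna1 peak fell in an untranslated region of 2 coding transcripts, 80 bp past their nearest start and 347 bp before the start shown in the sequence above. Those at Ccna2 (chromosome 3, 36571789), Plk1 (chromosome 7, 122159625) and Hspa2 (chromosome 12, 76404667) fell in coding exons. The centres at Ccnb1 (chromosome 13, 100786314), Ccnb2 (chromosome 9, 70421402), Cdk1 (chromosome 10, 69352666) and Cdk2 (chromosome 10, 128704684) were in introns. At Aurkc the centre (chromosome 7, 6995803) was intronic in 4 coding transcripts and in an untranslated region of 1.

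Cdc25c was the exception. Its centre, at position 34752164 of chromosome 18, lay 631 bp upstream of the nearest Cdc25c start and in no coding transcript, and it was the gene that lost its peak when the distance was set to 500 bp. The start of 2010110K18Rik, a lincRNA on the other strand, was nearer to it, at 252 bp. The peak counted for Cdc25c thus lies nearer to its neighbour's start than to its own, and what each start contributes was not tested.

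In 5 of the 10 genes the broad peak also held the start of another gene, a share not far from the 34.7% of protein-coding genes with a broad peak. In all 5 the other gene was on the opposite strand, as was at least 1 other gene in 87.9% of the shared broad peaks over protein-coding starts. Ccna1 shared it with the antisense RNA 4931419H13Rik (starts 187 bp apart), Cdk2 with Pmel, a pigment cell gene (177 bp), and Cdc25c with 2010110K18Rik (276 bp). Plk1 shared it with the antisense RNA Gm15489 (38 bp), and Hspa2 with the lincRNA 4930426I24Rik (194 bp). The mark over these starts cannot be divided between both genes. The broad peaks of Ccna2, Ccnb1, Ccnb2, Cdk1 and Aurkc held no other gene's start.

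The 10 genes have 49 annotated transcripts with 48 different starts, of which 39 lay inside the broad peak of the gene. The other 9 belong to Ccna1, Ccna2, Ccnb1, Cdk1 and Cdc25c and lie further into the gene, between 4281 bp from the centre in Ccnb1 and 15183 bp in Cdc25c. All but the one in Ccna1 are noncoding transcript models. All starts of Ccnb2, Cdk2, Plk1, Aurkc and Hspa2 were covered. The single internal start of Ccna1, a coding one 4764 bp from the centre, had no broad peak over it.

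**Figure D4:**
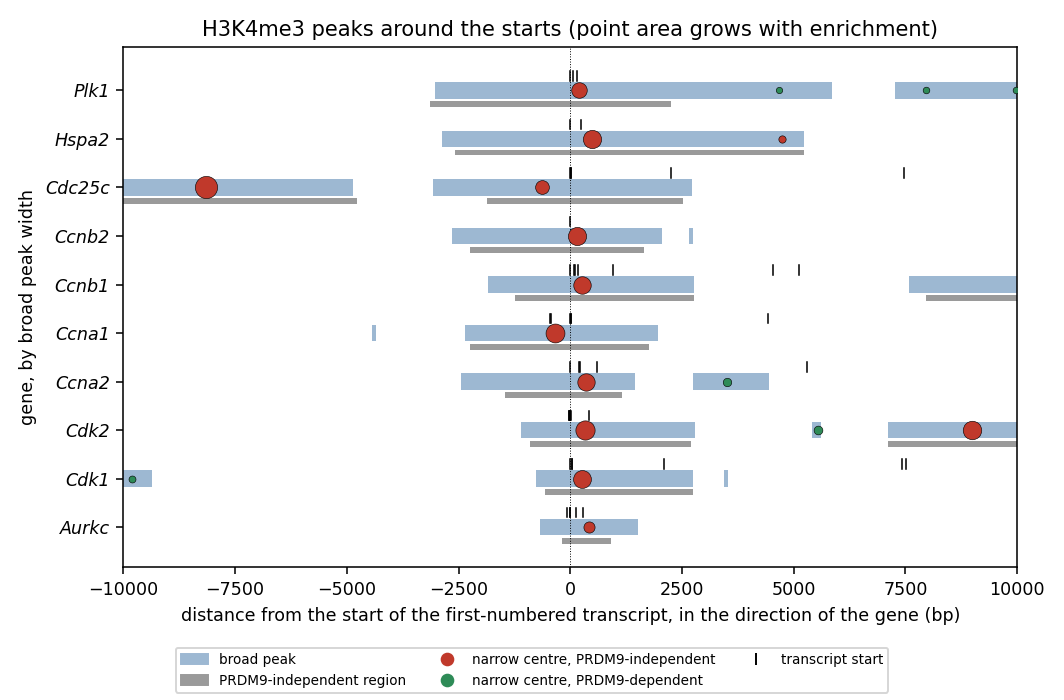
Broad peaks (blue bars), PRDM9-independent regions (grey bars), narrow peak centres (points, red where PRDM9-independent and green where PRDM9-dependent, area growing with enrichment) and annotated transcript starts (ticks) within 10 kb, as distance in bp from the start of its first-numbered transcript in the direction of the gene. Each gene has a single red point near its starts, the broad bars run from 2200 bp at Aurkc to 8900 bp at Plk1, and the green points inside genes are small.

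Within 10 kb of the genes there were 14 further narrow peaks around 8 members, 8 of them PRDM9-dependent. PRDM9-dependent here means a centre outside the PRDM9-independent regions. Of all such further peaks within 10 kb of protein-coding genes 61.3% were. All 6 that lay inside a member gene were PRDM9-dependent, against 69.1% of those inside protein-coding genes, and with so few peaks nothing is read from these shares. In Ccna2 such a peak lay in a coding exon at position 36568639 of chromosome 3, 3511 bp past the start, with 39 and 35 ChIP fragments, 5 input fragments and an enrichment of 6.84. An intronic peak of Cdk2 at position 128699463 of chromosome 10 had 11, 6 and 1 fragments (7.87), and an intronic one of Cdc25c at position 34733439 of chromosome 18 had 35, 36 and 9 (3.58). These gene-body peaks were far weaker than the start peaks of the same genes.

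In Plk1, 3 gene-body peaks lay at positions 122164108, 122167392 and 122169421 of chromosome 7, with enrichments of 0.537, 1.24 and 1.46. The first of them was within the broad peak over the start, which is itself PRDM9-independent. This centre had 19, 18 and 26 fragments, fewer in each ChIP library than in the input before any scaling for depth. Its enrichment of 0.537 is an excess over local background and not a value below it. Outside the genes, PRDM9-dependent peaks lay at position 69362756 of chromosome 10 beside Cdk1 (2.22) and at position 34724466 of chromosome 18 beside Cdc25c (2.93). The peak beside Cdk1 had 43, 42 and 17 fragments, and that beside Cdc25c only 9, 4 and 2. The PRDM9-independent further peaks included those at the starts of the neighbours Cenph, Rab5b and Fam53c. Others lay near no start, at position 70403977 of chromosome 9 beyond Ccnb2 (40.2), at position 69327904 of chromosome 10 beyond Cdk1 (36.3) and at position 76408922 of chromosome 12 within the broad peak of Hspa2 (3.16). Hspa2 and Plk1, with the widest broad peaks, were the only 2 members with a second narrow centre inside it.

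The promoter windows differed in base composition. RefSeq windows were matched for 8 of the 10 genes, all but Ccna2 and Cdc25c. The ratio of observed to expected CpG was 0.840 at Cdk2, 0.883 at Ccnb1, 0.950 at Ccnb2, 0.965 at Cdk1 and 1.00 at Plk1, all above the median of 0.591 over 20061 windows of protein-coding genes. Among the germline genes it was 0.852 at Ccna1, 0.664 at Hspa2 and 0.381 at Aurkc, which had 6 CpG in its 300 bases and stood at percentile 36.4. The gene with the weakest and narrowest mark thus also had the fewest CpG, as the printed sequence of Aurkc shows beside that of Ccna1. The germline median of 0.664 was below the general median of 0.950, and the ranges overlapped through Ccna1 and Cdk2. With 500 bases on each side of the start the difference between the medians went from -0.286 to -0.0537, and Hspa2 then had the highest ratio of the 8 at 0.878.

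All 8 windows held a CCAAT box and all 8 a GC box, which are in 37.9% and 48.0% of the windows of protein-coding genes. Over all 32851 windows these shares were 37.4% and 35.7%. Counted from 0 at the start base, the CCAAT box was at -107 in Ccna1, -29 in Hspa2, -45 in Cdk2 and -14 in Plk1, and past the start at 24 in Aurkc. The cell cycle homology region was in Ccnb2, Cdk1 and Plk1 and in none of the 3 germline windows. It was in 15.2% of the windows of protein-coding genes and 17.9% of all windows. The MYB letters were in Ccna1, Cdk1 and Hspa2, against 33.4% and 35.0%. The TATA box was in none of the 8, against 12.1% and 13.6%. A match to such short letters describes the sequence and is not a binding site.

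The other genes of the pathway and the other HSP70 genes were described by lists, 78 genes in all. Of these, 12 are HSP70 genes, and 77 are annotated under the name used (Cdk3 is not). Of the 77, 76 had a narrow peak within 1 kb of a start, beside the 77.4% of protein-coding genes given above. Their median enrichment was 57.0, close to the 55.6 of the 10 members, and 55 of them lay above the median of protein-coding genes. The exception was Cdk5, the kinase of neurons, whose nearest centre lay 1980 bp from a start with 837, 893 and 18 fragments under a broad peak of 6500 bp. The 10 members thus lay close to the median of the listed genes in strength, with the HSP70 genes counted among these.

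The other 11 cyclins had the lowest median, 34.1, running from 7.61 at Ccnd2, a D-type cyclin, to 99.8 at Ccng2. The 11 other cyclin-dependent kinases and partners with a peak had a median of 57.5, from 32.6 at Cdk4 to 102 at Cks2, a small CDK-binding protein. The 8 CDK inhibitors had a median of 59.0, from 6.55 at Cdkn1a to 98.1 at Cdkn2c. A-type and B-type cyclins, at 53.6 to 65.1, were thus above the median of the other cyclins and near those of the kinases and inhibitors.

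For the regulators of entry into division, the 8 genes of the CDC25 and WEE1 list had a median of 57.0. The lowest was Wee2, the WEE1 kinase of oocytes, with 24, 30 and 8 fragments and an enrichment of 3.04, and the highest Mastl, the Greatwall kinase, with 1280, 1438 and 4 fragments and 320, a ratio that rests on 4 input fragments. The Aurora and chromosomal passenger list had the median 71.4, from 38.3 at Aurkb to 114 at Haspin, a histone kinase, and all 8 of its genes exceeded the 17.6 of Aurkc. Polo, NEK and checkpoint kinases had a median of 57.3, from 30.0 at Chek2 to 96.2 at Chek1. Regulators of the anaphase-promoting complex had one of 56.5, from 20.9 at Fbxo5, its inhibitor, to 105 at Fzr1, an activator. The 12 other HSP70 genes had the highest median, 80.5, with the peak shared by Hspa1a and Hspa1l counted for both. Aurkc was thus lower than every gene of its own list, whereas Hspa2 lay below the median of the other HSP70 genes and the cyclins, Cdk1 and Cdk2 near the middle of the pathway.

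**Figure D5:**
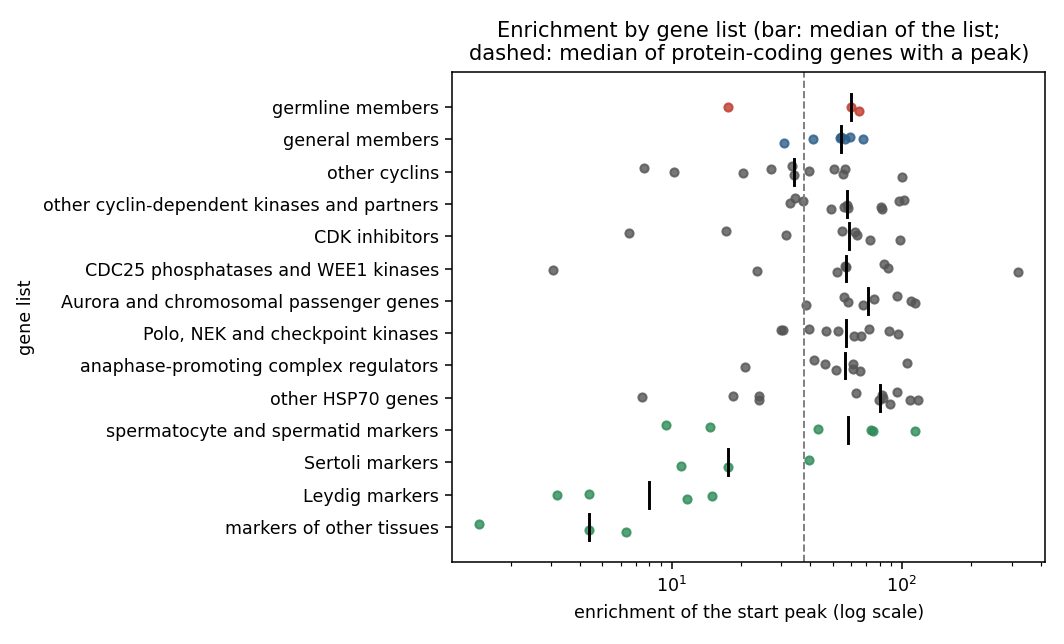
Enrichment of the start peak (log scale) for each gene (points) by list, with the median of each list as a bar and the median of protein-coding genes with a peak, 37.6, as a dashed line. Most pathway and HSP70 lists centre between 56.5 and 80.5, the other cyclins at 34.1, and the germline member far to the left of its group is Aurkc.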

How the data were processed

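H3K4me3 ChIP-seq libraries of whole testis (2 ChIP, 1 input) were compared at gene starts. Reads were mapped to mm10, with bedtools, SAMtools and BWA named in the submitters' processing notes, and the paper's methods add Stampy, removal of duplicates and improper pairs, and peak calling on both replicates jointly (narrow peaks at p under 1e-6 with centres at least 1 kb apart, broad peaks from bins of 100 bp). The deposited counts are the fragments that the authors found over each narrow peak centre, per library and without normalization. The deposited enrichment is the authors' excess over local background coverage, as a ratio to that background, with 0 for none. It is imprecise where the input holds few fragments. The deposited p-value is the authors' likelihood ratio test of each narrow peak, unadjusted, with very small values written as 0. Only positions were deposited for PRDM9-independent regions and broad peaks. An overlap of 1 bp put a broad peak in the PRDM9-independent class, and a narrow peak was classed by its centre alone.

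Each gene took the narrow peak of highest enrichment within 1 kb of any start in GENCODE vM21 and the widest broad peak over a start. Positions of narrow centres are given as deposited. No difference between genes was tested: counts, medians and ranges stand beside those of all protein-coding genes, with exact 95% intervals of ratios of ChIP to input counts. The deposited files give depth only over the peaks, and the input, with 11 to 25 fragments at the members, sets the precision. All 10 members are named with values, and of each list the genes without a peak and those of highest and lowest enrichment, besides the families of the members. Of the markers of other tissues, 1 gene is not reported here. The members, lists and motifs were chosen with earlier results of these data known. The lookup of peaks and the intervals were tested on simulated data. Values were computed in Python 3.11.15 with pandas 2.3.3, scipy 1.17.1 and numpy 2.4.6, and plots were drawn with matplotlib 3.10.9.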

Additional observations from a re-analysis of the deposited data

How the results depend on the processing

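No paired analysis was possible because there is a single condition with 2 ChIP libraries, so that no groups share replicate numbers. The difference of the medians of germline and general genes on the log2 enrichment scale, 0.15 as reported (SD 0.03 between the replicates), was 0.11 with narrow centres within 500 bp, 0.11 from the mean ChIP coverage without the input, and -1.66 over genes whose broad peak holds no other start, which leaves Aurkc alone among the germline genes. Leaving out replicate 1 or 2 gave 0.12 to 0.17. The SD between the replicates comes from 2 ChIP libraries that share the same input, so it leaves out the counting error of the input. The median log2 enrichment of the 10 genes was 5.80, and 5.78 to 5.86 without one of the replicates. The difference of median broad peak width was -300 bp and became -400 bp with the broad peaks within 1 kb summed. The difference of the median CpG ratio went from -0.286 to -0.0537 with 500 bases on each side of the start. The number of members with a narrow peak was 10, and 9 at 500 bp. That of the listed pathway and HSP70 genes was 76, with 71 at 500 bp and 77 at 2 kb. The counts of members with a broad peak and in the PRDM9-independent class were 10 under each alternative run. The input depth limits the precision of every ratio, and differences between genes below about the width of the printed intervals were not detectable.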

Other observations

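Ccnb1, Ccnb2 and Cdk1 each held CCAAT boxes at a similar spacing. The window of Ccnb3, which is not a member, was not described. In Ccnb2 the boxes were at -87, -54 and -21 from the start, 33 bases apart each time. In Cdk1 they were at -208, -80 and -48, all on the other strand, the last pair 32 bases apart and the box at -208 far from both. In Ccnb1 they were at -99 and -67, 32 bases apart. CCAAT boxes on the same strand and 31 to 34 bases apart were in 3 of the 8 member windows, in 0.895% of all 32851 promoter windows and in 1.15% of the 20061 windows of protein-coding genes. The spacing was chosen after the positions in the members were seen, so the shares describe these windows and do not test them. The start peaks of the 3 genes had enrichments of 54.3 (Ccnb1), 56.9 (Cdk1) and 59.8 (Ccnb2), and those of the 5 other genes with a window ran from 17.6 to 67.7.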
